A study of Mus musculus with 10 samples.

Results

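The mast cell proteases and identity genes were 10 of the 54532 genes measured in whole lungs of mice with increased pulmonary flow (IPF) and of sham-operated mice. They were Cpa3, Cma1, Mcpt4, Mcpt8, Tpsb2, Kit, Ms4a2, Fcer1a, Hdc and Gata2, each found once by its gene symbol. The list was chosen from results of this same comparison, in which Cpa3 stood high, so the differences of its members between the groups are given as a description and are no independent evidence of their direction. Of the 10 genes, 7 reached the mean of 0.1 FPKM (fragment counts corrected for the length of the gene and the size of the library) that was asked of a gene before it entered the comparison, as did 20448 of all genes. Mcpt8, Ms4a2 and Fcer1a did not.

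In the IPF group (n = 5), wild-type C57BL/6J pups underwent an aortocaval fistula at P7, a needle hole from the abdominal aorta into the neighbouring inferior vena cava that raises the flow returning to the right heart and the lungs. The sham group (n = 5), also wild type, had the same laparotomy without the puncture. Lungs of both groups were collected at P30 and their RNA was sequenced. The labels tie no lung to a litter, cage or sex, so a p-value here measures the spread between these 10 lungs.

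Mast cells are tissue-resident granulocytes that depend on stem cell factor and its receptor Kit, carry the high-affinity IgE receptor, and store histamine and proteases on heparin in their granules. Connective tissue mast cells of the mouse hold carboxypeptidase A3 (Cpa3), the chymases encoded by Cma1 and Mcpt4, and the tryptase encoded by Tpsb2, whereas Mcpt8 encodes a protease of basophils, their circulating relatives. In the lung, mast cells lie mostly around large airways, large vessels and the pleura, and several of the identity genes are also used elsewhere: Kit and Gata2 in capillary endothelium, Hdc in neutrophils and basophils.

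Promoters of the members were searched because GATA factors, Gata2 among them, bind the core GATA and are known regulators of mast cell genes. Only the windows that held a match are shown. Promoter windows were found for 9 of the 10 members in the RefSeq table for GRCm38.p6 (11 windows, each 250 bases before to 50 bases after an annotated start), and not for Tpsb2. The letters GATAA, searched on both strands, stood in 5 of the 11 windows, and in 8347 of all 32851 promoter windows of the same length (25.4%). The 5 windows are printed 5′ to 3′ on the strand of the gene, with GATAA, or TTATC where it lies on the other strand, in capitals. They are chr3:20242132-20242431 (-) for Cpa3, chr14:55944626-55944925 (-) for Cma1, chr14:56062261-56062560 (-) for Mcpt4, chr19:11623670-11623969 (-) for Ms4a2 and chr1:173227180-173227479 (-) for Fcer1a.
Cpa3: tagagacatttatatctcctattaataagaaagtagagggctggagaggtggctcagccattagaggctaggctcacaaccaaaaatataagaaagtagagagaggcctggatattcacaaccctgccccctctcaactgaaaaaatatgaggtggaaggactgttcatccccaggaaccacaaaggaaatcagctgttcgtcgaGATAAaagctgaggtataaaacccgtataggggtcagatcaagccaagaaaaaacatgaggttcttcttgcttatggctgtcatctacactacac
Cma1: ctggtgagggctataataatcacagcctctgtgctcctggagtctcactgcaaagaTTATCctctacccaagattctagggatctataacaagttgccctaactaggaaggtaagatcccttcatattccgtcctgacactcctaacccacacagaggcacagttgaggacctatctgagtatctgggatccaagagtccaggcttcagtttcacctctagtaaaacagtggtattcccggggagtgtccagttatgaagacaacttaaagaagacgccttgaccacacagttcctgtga
Mcpt4: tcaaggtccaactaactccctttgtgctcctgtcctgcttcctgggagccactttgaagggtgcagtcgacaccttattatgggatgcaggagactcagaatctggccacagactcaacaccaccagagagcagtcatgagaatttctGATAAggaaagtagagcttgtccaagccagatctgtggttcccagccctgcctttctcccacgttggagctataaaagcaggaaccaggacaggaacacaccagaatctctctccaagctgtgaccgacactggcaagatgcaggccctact
Ms4a2: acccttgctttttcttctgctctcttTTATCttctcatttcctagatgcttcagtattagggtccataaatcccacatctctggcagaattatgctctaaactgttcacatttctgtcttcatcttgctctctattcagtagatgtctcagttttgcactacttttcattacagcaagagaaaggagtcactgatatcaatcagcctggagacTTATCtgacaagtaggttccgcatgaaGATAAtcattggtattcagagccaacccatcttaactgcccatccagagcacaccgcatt
Fcer1a: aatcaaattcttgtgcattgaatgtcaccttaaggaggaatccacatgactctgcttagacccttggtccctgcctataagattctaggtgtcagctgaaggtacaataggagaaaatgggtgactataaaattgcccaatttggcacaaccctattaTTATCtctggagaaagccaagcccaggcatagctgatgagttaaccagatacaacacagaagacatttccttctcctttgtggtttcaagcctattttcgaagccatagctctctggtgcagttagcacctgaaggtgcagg
Ms4a2 held 3 matches and the other windows 1 each, at -45 from the annotated start in Cpa3. The windows of Mcpt8, Kit, Hdc and Gata2 held none. The E-box letters CATGTG or CACGTG, which MITF-family factors bind, stood in the Fcer1a window alone, against 20.4% of all windows. A match is a run of letters and says nothing of binding in these lungs.

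The reads recovered from the FPKM values numbered 16250190 to 19026843 per lung in the IPF group and 15483046 to 17818542 in the sham group. Sham replicate 1 stood apart: its mean Spearman correlation with the other 9 lungs, across 31425 genes that are not independent of each other, was 0.912, against 0.929 to 0.932 for each of the others. Sex and group could not be told apart, since Xist lay at 26.8 to 43.2 FPKM in the IPF lungs and at 0.0301 to 0.0767 in the sham lungs, while the Y-linked Ddx3y was at 0 in all IPF lungs and at 14.3 to 21.4 in the sham lungs. All 7 circadian clock genes examined also passed the test between the groups, 2 higher and 5 lower in IPF, as did 5 of 6 glucocorticoid-induced genes, all lower and 1 of them, Per1, also among the clock genes, and the part of these differences in the values below was not tested.

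Cpa3 and Cma1 were the 2 members whose groups did not overlap, and both were higher in IPF. Cpa3 (ENSMUSG00000001865, GRCm38 chr3:20215620-20242181, minus strand) encodes carboxypeptidase A3, which trims the C-terminal residues of peptides inside mast cell granules. It measured 4.57, 7.12, 4.95, 5.90 and 1.75 FPKM in IPF replicates 1 to 5 and 0.800, 1.21, 0.985, 0.554 and 0.994 FPKM in sham replicates 1 to 5. Every IPF lung lay above every sham lung, but IPF replicate 5 was far below the other IPF lungs and nearest to the sham range. The means were 4.86 ± 2.00 and 0.909 ± 0.247 FPKM (SD, n = 5 each). On log2(FPKM + 0.1) the difference was 2.20 (standard error 0.33, 95% interval 1.48 to 2.93, limma with Benjamini-Hochberg adjustment over all genes tested, adjusted p = 0.00345), or 4.60-fold on that scale. The values rested on 650 reads in IPF and 114 in sham lungs, a ratio of 5.28 after scaling to the depth of each group (95% exact interval for counting error alone, 4.33 to 6.51). In bulk RNA a larger number of mast cells and more of a transcript per mast cell cannot be told apart.

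IPF replicate 5 differed from its group in other genes as well. In this lung the clock gene Arntl was at 3.31 FPKM, against 5.61 to 6.85 in the other IPF lungs and 0.311 to 0.452 in the sham lungs. The other clock genes of this lung also lay between the other IPF lungs and the sham lungs. Its level of Fkbp5, a glucocorticoid-induced gene, was 9.11 FPKM against 1.61 to 2.08 in the other IPF lungs and 13.7 to 19.3 in the sham lungs, and its level of the neutrophil gene S100a9 was 185 FPKM against 29.3 to 41.2 in the other IPF lungs. Without this lung the Cpa3 difference was 2.52 on the log2 scale, the top of the range of 2.03 to 2.52 found when each of the 10 lungs was left out in turn, and the limma adjusted p lay between 8.06e-05 and 0.0126 over these fits. Without sham replicate 1 the difference was 2.17.

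Cma1 (ENSMUSG00000022225, chr14:55941451-55944675, minus strand) encodes the mast cell chymase mMCP-5. Its levels were 0.970, 0.826, 0.679, 1.26 and 0.467 FPKM in IPF replicates 1 to 5 and 0.167, 0.358, 0.343, 0.386 and 0.241 FPKM in sham replicates 1 to 5. The lowest IPF lung, again replicate 5, lay just above the highest sham lung. The means were 0.840 ± 0.299 and 0.299 ± 0.0919 FPKM (SD, n = 5 each), and the difference on log2(FPKM + 0.1) was 1.21 (standard error 0.26, 95% interval 0.63 to 1.79, limma adjusted p = 0.0211). It rested on few reads, 9 to 25 per IPF lung and 3 to 7 per sham lung, and the ratio of the pooled reads was 2.78 (counting interval 1.78 to 4.47). The call was lost without IPF replicate 1, 2 or 4, with limma adjusted p-values of 0.0570, 0.0542 and 0.0555.

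Mcpt4 (ENSMUSG00000061068, chr14:56059629-56062313, minus strand), a chymase gene of the same cluster on chromosome 14, measured 0.371, 0.379, 0.0955, 0.545 and 0.357 FPKM in IPF replicates 1 to 5 and 0.0548, 0.101, 0.281, 0.108 and 0.178 FPKM in sham replicates 1 to 5. Of the IPF lungs, 4 lay above all sham lungs, while IPF replicate 3 fell inside the sham range. The difference was 0.85 on the log2 scale (95% interval 0.06 to 1.64) and did not pass after adjustment over all genes (limma adjusted p = 0.220). Tpsb2 (ENSMUSG00000033825, chr17:25366550-25368094, plus strand), the tryptase gene, measured 0.543, 0.166, 0.391, 0.355 and 0.209 FPKM in IPF replicates 1 to 5 and 0, 0.206, 0.0576, 0.278 and 0.182 FPKM in sham replicates 1 to 5. Here 3 of 5 IPF lungs lay above all sham lungs and the groups overlapped. The difference was 0.91 (95% interval 0.02 to 1.79, limma adjusted p = 0.245). Mcpt4 and Tpsb2 rested on 34 and 32 reads in IPF lungs and on 13 reads each in sham lungs, and both count ratios, 2.42 and 2.28, lay near that of Cma1 with counting intervals of 1.25 to 5.01 and 1.16 to 4.74.

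Mcpt8 (ENSMUSG00000022157, chr14:56082166-56085273, minus strand), the basophil protease of the same cluster, gave 1, 1, 5, 0 and 4 reads in IPF replicates 1 to 5 and 0, 3, 1, 1 and 1 in sham replicates 1 to 5. The groups overlapped, and the ratio of 11 to 6 reads was 1.70 after scaling for depth (counting interval 0.576 to 5.60). The sham lungs were at or under the floor of 3 reads per library set for a detectable level.

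**Figure D1:**
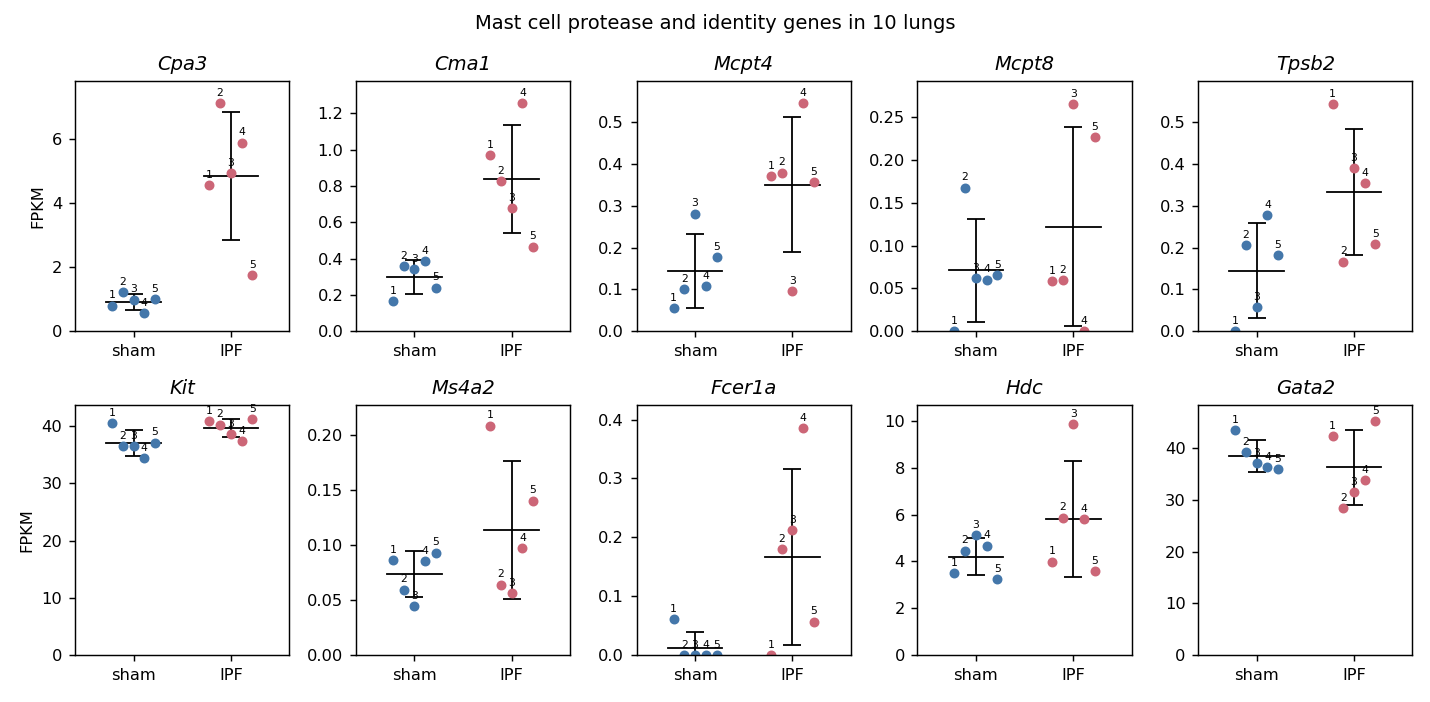
Level in FPKM of each of the 10 genes in every lung, with sham lungs at left and IPF lungs at right of each panel, replicate numbers beside the points, and lines for the mean ± SD (n = 5 each). Every IPF point lies above every sham point for Cpa3 and Cma1 and for no other gene, and replicate 5 is the lowest IPF point of both.

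The groups overlapped for each of the 3 receptor genes. Kit (ENSMUSG00000005672, chr5:75574916-75656722, plus strand), the receptor of stem cell factor, had the highest mean of the members in IPF lungs, though Gata2 lay above it in IPF replicates 1 and 5. It measured 40.9, 40.3, 38.6, 37.4 and 41.3 FPKM in IPF replicates 1 to 5 and 40.6, 36.5, 36.6, 34.4 and 37.1 FPKM in sham replicates 1 to 5. The groups overlapped, since sham replicate 1 lay among the IPF lungs. The difference of 0.10 on the log2 scale did not pass (95% interval -0.02 to 0.22, limma adjusted p = 0.353).

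The alpha and beta chains of the IgE receptor were near the limit of detection. Ms4a2 (ENSMUSG00000024680, chr19:11615523-11623719, minus strand), the beta chain, gave 10, 3, 3, 5 and 7 reads in IPF replicates 1 to 5 and 4, 3, 2, 4 and 4 in sham replicates 1 to 5, with overlapping groups and a read ratio of 1.53 (counting interval 0.807 to 2.97). Fcer1a (ENSMUSG00000005339, chr1:173221284-173227214, minus strand), the alpha chain that binds IgE itself, gave 0, 3, 4, 7 and 1 reads in IPF replicates 1 to 5 and 1, 0, 0, 0 and 0 in sham replicates 1 to 5. IPF replicates 2, 3 and 4 lay above all sham lungs, while IPF replicate 1 had no read. The ratio of 15 reads to 1 was 13.9 after scaling for depth, with a counting interval of 2.14 to 585, so neither its size nor its place beside the Cpa3 ratio is settled by these reads. With no filter on low levels, limma gave a log2 difference of 1.07 for Fcer1a (adjusted p = 0.213), 0.28 for Mcpt8 (adjusted p = 0.758) and 0.26 for Ms4a2 (adjusted p = 0.668).

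Hdc (ENSMUSG00000027360, chr2:126593667-126619299, minus strand) encodes histidine decarboxylase, which makes histamine. It measured 3.99, 5.87, 9.85, 5.80 and 3.59 FPKM in IPF replicates 1 to 5 and 3.50, 4.46, 5.12, 4.67 and 3.23 FPKM in sham replicates 1 to 5. IPF replicates 2, 3 and 4 lay above all sham lungs and the other IPF lungs inside the sham range. The difference of 0.39 on the log2 scale did not pass (95% interval -0.14 to 0.92, limma adjusted p = 0.417). It was 0.18 without IPF replicate 3, the bottom of the range of 0.18 to 0.54 with each lung left out in turn. Gata2 (ENSMUSG00000015053, chr6:88193891-88207032, plus strand), a transcription factor of mast cells, blood progenitors and endothelium, measured 42.4, 28.5, 31.6, 33.9 and 45.3 FPKM in IPF replicates 1 to 5 and 43.6, 39.2, 37.1, 36.4 and 36.0 FPKM in sham replicates 1 to 5. IPF replicates 2, 3 and 4, the lungs with high Hdc, were below all sham lungs, and IPF replicates 1 and 5 were not. The difference was -0.10 (95% interval -0.37 to 0.17, limma adjusted p = 0.705).

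By levels per gene length, the members fell into tiers. In sham lungs Gata2 (38.5 ± 3.11 FPKM) and Kit (37.0 ± 2.24 FPKM) came first with overlapping ranges, followed by Hdc (4.20 ± 0.799 FPKM), Cpa3 and Cma1, whose ranges did not touch each other. Below them Tpsb2 (0.145 ± 0.113 FPKM), Mcpt4 (0.144 ± 0.0881 FPKM), Ms4a2 (0.0737 ± 0.0209 FPKM), Mcpt8 (0.0712 ± 0.0604 FPKM) and Fcer1a (0.0122 ± 0.0272 FPKM) overlapped each other, and the highest Tpsb2, Mcpt4 and Mcpt8 values reached into the Cma1 range. In IPF lungs the Cpa3 range of 1.75 to 7.12 FPKM reached into the Hdc range of 3.59 to 9.85 FPKM. The highest Mcpt4 (0.545 FPKM) and Tpsb2 (0.543 FPKM) values reached into the Cma1 range of 0.467 to 1.26 FPKM. By means the order was Kit and Gata2, then Hdc, Cpa3, Cma1 and the rest. The ratio of Cpa3 to Cma1 in FPKM was 3.75 to 8.62 (median 4.71) in IPF and 1.44 to 4.79 (median 3.39) in sham lungs, with overlapping ranges.

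Of the 7 members tested, 2 passed at an adjusted p under 0.05 (limma), both higher in IPF, against 5.85% of all 20448 genes, and voom on the recovered reads called the same 2. The same 2 also had an absolute log2 difference above 1, against 1.14% of all genes, and groups that did not overlap, against 7.29%. The median log2 difference of the 7 was 0.85, with 6 estimates above 0 and 1 below, and that of all genes tested was 0.0017. Since the list was drawn up with this contrast known, nothing is read from these counts.

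**Figure D2:**
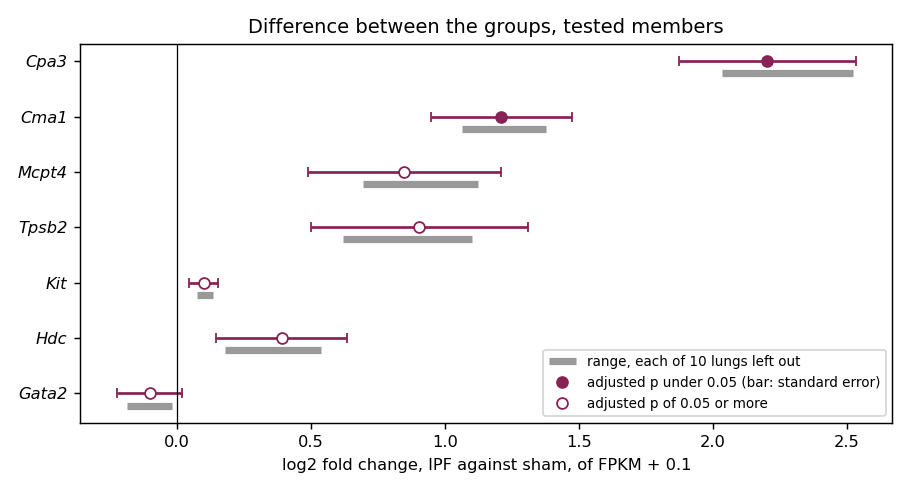
Difference between IPF and sham on log2(FPKM + 0.1) for the 7 members tested, with bars for the standard error, filled points for an adjusted p under 0.05 (limma) and grey bars for the range when each of the 10 lungs was left out in turn. Cpa3 at 2.20 and Cma1 at 1.21 are filled, and Kit and Gata2 lie close to 0.

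Whether Cpa3 moved with the other markers was tested within the groups, on the deviations of log2(FPKM + 0.1) from each group's mean, since this leaves out the contrast by which the genes were chosen. Over the 9 partners, 0 passed after Benjamini-Hochberg adjustment and 0 had an unadjusted p under 0.05 (exact permutation of the lungs within each group, two-sided, n = 10 lungs). Cma1 was the partner with the highest Pearson coefficient, at r = 0.53 (exact permutation p = 0.178, adjusted p = 0.77) and rho = 0.27 (exact permutation p = 0.487, adjusted p = 0.731). By rho, Fcer1a (0.44) and Hdc (0.37) lay above it, and Gata2 was larger in size by both measures, at -0.67. The Cma1 coefficient fell to r = 0.45 without IPF replicate 5 and sham replicate 4, the 2 lungs farthest from the median of Cpa3. It fell to 0.0079 without IPF replicate 5 alone, in which both proteases were low. Without sham replicate 4 alone it was r = 0.74 (exact permutation p = 0.0465, adjusted p = 0.209), so the coefficient depended on both lungs.

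Hdc had r = 0.44 and rho = 0.37 (exact permutation p = 0.342 and 0.275, adjusted p = 0.77 and 0.637), with r = 0.18 without the 2 farthest lungs and -0.0084 without IPF replicate 5 alone. Fcer1a had r = 0.40 and rho = 0.44 (exact permutation p = 0.465 and 0.283, adjusted p = 0.771 and 0.637), and r = 0.24 without them. Mcpt4 had r = 0.10 and rho = 0.18 (exact permutation p = 0.782 and 0.654, adjusted p = 0.880 and 0.841), and r = 0.36 without them. Tpsb2 had r = 0.03 and rho = -0.10 (exact permutation p = 0.919 and 0.825, adjusted p = 0.919 and 0.928), with r = 0.02 without the 2 lungs and -0.34 without IPF replicate 5 alone. These partners gave no relation larger than the spread between lungs, which at 10 lungs does not show that they varied separately.

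Several coefficients were negative. Gata2 had r = -0.67 and rho = -0.67 (exact permutation p = 0.0670 and 0.0737, adjusted p = 0.603 and 0.337), with r = -0.70 without the 2 farthest lungs and r = -0.34 without IPF replicate 5 alone. Without sham replicate 4 alone Gata2 had r = -0.79 (exact permutation p = 0.0170, adjusted p = 0.153). With a pseudocount of 1 it had r = -0.73 (exact permutation p = 0.0460, adjusted p = 0.414). Ms4a2 had r = -0.47 and rho = -0.66 (exact permutation p = 0.327 and 0.0749, adjusted p = 0.77 and 0.337), with r = -0.53 without them. Mcpt8 had r = -0.32 and rho = -0.04 (exact permutation p = 0.532 and 0.942, adjusted p = 0.771 and 0.942), and turned to r = 0.13 without them. Kit had r = -0.18 and rho = -0.31 (exact permutation p = 0.600 and 0.374, adjusted p = 0.771 and 0.673), with r = -0.46 without them, and turned to r = 0.17 without IPF replicate 5 alone. None of these passed either.

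**Figure D3:**
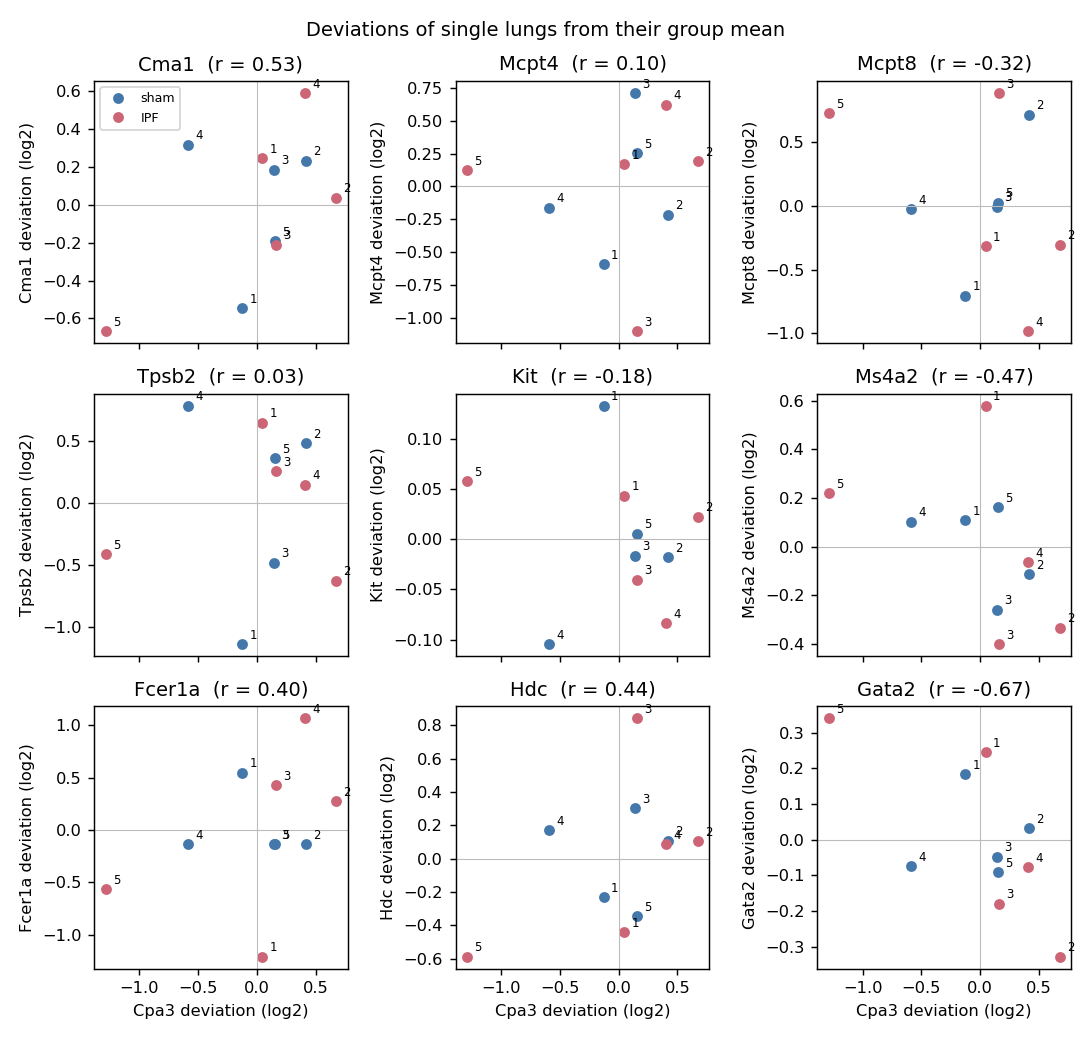
Deviation of each lung from its group mean on log2(FPKM + 0.1), Cpa3 on each horizontal axis and 1 of the 9 other members on each vertical axis, with sham and IPF lungs in different colours and replicate numbers beside the points. IPF replicate 5 lies far to the left in every panel, and the coefficients run from -0.67 (Gata2) to 0.53 (Cma1).

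Counting error limited what these coefficients could show. The spread within groups was 0.601 on the log2 scale for Cpa3, against 0.212 expected from counting reads alone. For Cma1 it was 0.423 against 0.400, for Mcpt4 0.577 against 0.480, for Mcpt8 0.659 against 0.548 and for Ms4a2 0.314 against 0.327. The spread of these partners was close to what counting alone gives. Tpsb2 (0.667 against 0.487) and Fcer1a (0.667 against 0.446) lay further above it. Kit (0.0740 against 0.0189), Hdc (0.443 against 0.0612) and Gata2 (0.216 against 0.0245) varied between lungs well beyond counting.

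Among 13444 other genes with a mean of at least 1 FPKM, 9.65% had a higher coefficient with Cpa3 than Cma1 had, 14.5% a higher one than Hdc and 94.3% a higher one than Gata2. The 5 genes most like Cpa3 by this measure (n = 10 lungs) were Nat10 (r = 0.991), 3830406C13Rik (r = 0.971), Ikbkap (r = 0.959), Rinl (r = 0.939) and Gm3756 (r = 0.925). No member and no gene of the other mast cell list was among them. Of the other members only Kit, Hdc and Gata2 reached the mean of 1 FPKM, so the rest, Cma1 included, could not be. The 5 genes are given as a description with no test.

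Further genes of mast cells were examined beside the members, and the counts of these lists are read against shares of all genes tested of 5.85% at an adjusted p under 0.05 (limma), 19.5% at an unadjusted p under 0.05 and 7.17% with voom. Of 22 such genes, 12 lay below the filter on low levels and are not covered by the counts and the median that follow. The other 10 were tested and 0 passed (limma, and 0 with voom), 2 with an unadjusted p under 0.05. Of the estimates, 7 were above 0 and 3 below, with a median log2 difference of 0.12. Several genes of this list were at or near 0. Tpsab1, a second tryptase gene, had 0 reads in IPF and 3 in sham lungs, and Cma2 and Mcpt9 had none. Mrgprb2, the receptor for basic secretagogues on connective tissue mast cells, had 1 read in IPF and 2 in sham lungs. Mcpt2, a mucosal mast cell chymase, had 8 reads in IPF lungs, 7 of them in IPF replicate 4, and 0 in sham lungs. Tph1, which starts serotonin synthesis, had 2, 0, 2, 2 and 3 reads in IPF replicates 1 to 5 and 0 in every sham lung. In the other direction, Gata1 had 47 reads in IPF and 77 in sham lungs, and Il1rl1, the interleukin-33 receptor, had 657 and 792. Mcpt1, also a mucosal chymase gene, had 2 reads in IPF and 6 in sham lungs, 5 of the 6 in sham replicate 2. Cd63, a granule membrane protein found in many cells, and Ndst2, which sulphates heparin, were the most abundant of this list, at log2 differences of 0.13 and -0.18 (limma adjusted p = 0.674 and 0.205).

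Within groups, 20 genes of the mast cell and basophil lists were also compared with Cpa3, and 0 passed after adjustment. Adora3, an adenosine receptor that mouse mast cells carry, was the 1 gene with an unadjusted p under 0.05, at r = 0.74 (exact permutation p = 0.0245, adjusted p = 0.490) and rho = 0.78 (exact permutation p = 0.0194, adjusted p = 0.388), with r = 0.75 without the 2 farthest lungs (n = 10). It measured 0.347, 0.563, 0.397, 0.456 and 0.273 FPKM in IPF replicates 1 to 5 and 0.179, 0.269, 0.351, 0.225 and 0.211 FPKM in sham replicates 1 to 5, with overlapping groups and a log2 difference of 0.54 (limma adjusted p = 0.209). It was named after its value was seen.

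Of 12 basophil genes, 10 were tested and 0 passed (limma, and 0 with voom), 2 with an unadjusted p under 0.05. All 10 estimates were above 0, with a median of 0.18. Prss34, a basophil protease, had 22 reads in IPF and 13 in sham lungs, and Cd200r3, a basophil and mast cell receptor, had 22 and 18. The most abundant of the list, Cebpa and Ifitm1, are used widely in lung cells and had log2 differences of 0.0051 and 0.18 (limma adjusted p = 0.984 and 0.607).

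The chymase cluster on chromosome 14 also holds granzyme genes of lymphocytes. Of its 15 genes, 6 had no read and 4 were tested, Cma1, Mcpt4, Ctsg and Gzmb, and 2 passed, against 5.85% of all genes. The first was Cma1, a member. Gzmb, the granzyme of cytotoxic lymphocytes, was the second, at 1.67 ± 0.486 FPKM in IPF and 0.804 ± 0.231 FPKM in sham lungs (SD, n = 5 each), a log2 difference of 0.97 (limma adjusted p = 0.0394). This call was lost in 9 of 10 fits that left out a lung.

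In IgE receptor signalling, 14 of 16 genes were tested and 1 passed (limma), against 5.85% of all genes. An unadjusted p under 0.05 was found for 7 of the 14, against 19.5% of all genes, and voom called 2, against 7.17%. The estimates were above 0 for 12, with a median of 0.21. The gene that passed was Fcer1g, the gamma chain that Fc receptors of many leukocytes share, at 39.4 ± 4.95 FPKM in IPF and 29.7 ± 3.68 FPKM in sham lungs (log2 difference 0.41, limma adjusted p = 0.0468). It too was lost in 9 of 10 fits without a lung. Lyn, the kinase that starts the signal, had a log2 difference of 0.15 (limma adjusted p = 0.257).

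Of 13 growth and chemotactic factors of mast cells, 10 were tested and 0 passed (limma, and 0 with voom), 1 with an unadjusted p under 0.05. Kitl, stem cell factor and the ligand of Kit, was at 82.8 ± 13.0 FPKM in IPF and 84.6 ± 7.87 FPKM in sham lungs, a log2 difference of -0.04 (adjusted p = 0.884), and Cxcl12 had 0.38 (adjusted p = 0.267, and 0.0152 without IPF replicate 5). Of 22 genes that make, store, break down or receive histamine, heparin and lipid mediators, 19 were tested, 5 had an unadjusted p under 0.05 and 1 passed: Cysltr1, the cysteinyl leukotriene receptor, at 2.10 ± 0.380 FPKM in IPF and 1.25 ± 0.294 FPKM in sham lungs (log2 difference 0.72, limma adjusted p = 0.0363), which was lost in 7 of 10 fits without a lung. On the recovered reads voom called 3 genes of this list. Ndst1 and Srgn, the proteoglycan core that holds granule proteases, had 0.14 and 0.07 (limma adjusted p = 0.587 and 0.761).

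Mast cell chymase and carboxypeptidase can cut angiotensin peptides, and 10 of 12 angiotensin genes were tested. Of these 0 passed (limma), though 7 had an unadjusted p under 0.05, against 19.5% of all genes, and voom called 2, Prcp and Agt. The estimates were above 0 for 7 and below for 3. Ace, the converting enzyme of lung capillaries, was at 256 ± 53.8 FPKM in IPF and 306 ± 16.7 FPKM in sham lungs, a log2 difference of -0.28 (adjusted p = 0.254, and 0.0392 without IPF replicate 5), and Enpep had 0.04 (adjusted p = 0.823).

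**Figure D4:**
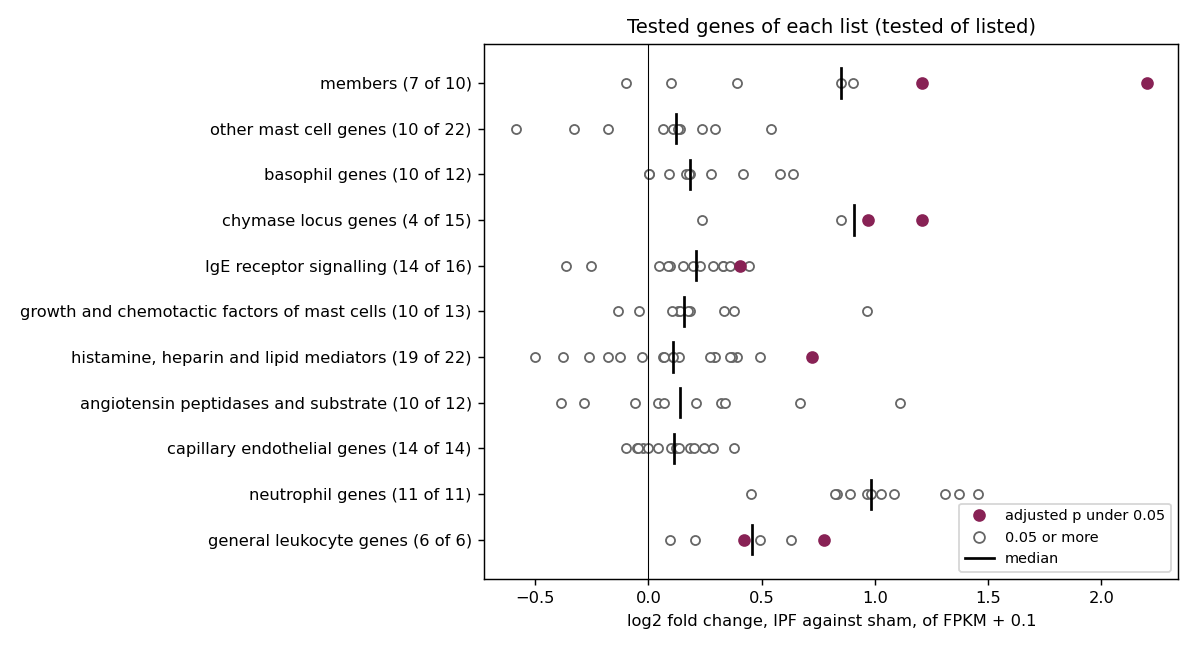
Log2 difference between IPF and sham of each tested gene in 11 lists, with filled points for an adjusted p under 0.05 (limma), a bar for the median and the number tested of those listed beside each name. Cpa3 and Cma1 lie at the right of the members, and the 10 tested of the 22 other mast cell genes, with a median of 0.12, hold no filled point.

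Markers of other cells that use the same genes were set beside them. The 14 capillary endothelial genes, Kit and Gata2 among them, summed to 1829 to 2489 FPKM in IPF lungs and 1967 to 2028 in sham lungs, and 0 of 14 passed (limma, and 0 with voom), 1 with an unadjusted p under 0.05. The 11 neutrophil genes, listed because neutrophils also make Hdc, summed to 58.0 to 317 FPKM in IPF and 18.4 to 81.2 in sham lungs. All 11 estimates were above 0, with a median of 0.98, and 0 passed (limma, and 0 with voom), while 7 had an unadjusted p under 0.05. The 2 most abundant, S100a9 and S100a8, had log2 differences of 1.46 and 1.37 (limma adjusted p = 0.186 and 0.255). The 6 general leukocyte genes summed to 64.0 to 82.3 FPKM in IPF and 34.1 to 62.0 in sham lungs. All 6 estimates were above 0, with a median of 0.46, and 2 passed (limma), 4 had an unadjusted p under 0.05 and voom called 3. Of these, Ptprc, the pan-leukocyte phosphatase CD45, rose (6.22 against 4.62 FPKM, log2 difference 0.42, limma adjusted p = 0.00825). Their part in the protease values was not tested.

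Large airway and cartilage genes, mesothelial genes and heart and pulmonary vein muscle genes mark tissue near which lung mast cells lie. Of 7, 6 and 6 such genes tested, 0 passed in each list (limma, and 0 with voom), with 1, 1 and 0 at an unadjusted p under 0.05, and their sums overlapped between the groups, at 454 to 661 FPKM in IPF and 559 to 633 in sham lungs for airway and cartilage, 138 to 175 and 125 to 186 for mesothelium, and 17.9 to 165 and 27.4 to 150 for heart and vein muscle. Heart muscle transcripts were uneven between lungs: Myh6 was at 18.7 FPKM in IPF replicate 4, 15.3 in sham replicate 3 and at most 0.148 in every other lung. IPF replicate 4 was also the highest IPF lung for Cma1 and Mcpt4. Sham replicate 3 was the highest sham lung for Mcpt4 but not for Cma1, and neither lung was the highest of its group for Cpa3. The part of this in the protease values was not tested. Of 8 tested genes of type 2 lymphoid cells, 4 had an unadjusted p under 0.05, against 19.5% of all genes. Areg fell by 0.76 on the log2 scale (4.25 against 7.33 FPKM, limma adjusted p = 0.0253), a call lost in 5 of 10 fits without a lung (adjusted p up to 0.0661), and no other passed, while voom called 2, Rora and Areg.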

How the data were processed

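Whole-lung RNA of 10 mice was sequenced, 5 per group. Per the paper's methods, the authors trimmed reads with Fastp, aligned them with HISAT2 and quantified genes with StringTie. They deposited 1 FPKM value per gene and sample, together with each gene's length and position. The methods name GRCm39, but the positions match GRCm38, which the submitters' processing notes list, and GRCm38 is used here. The methods name a KAPA library kit and the labels a NEBNext kit. Multiplied by gene length, 99.85% to 99.9957% of the values above 0 in a sample were whole steps (tolerance 0.01), and reads were recovered by rounding. PCR copies are not marked, so count intervals and the floor of 3 reads cover counting error only.

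Members and gene lists were chosen with earlier results of these data known. Genes with a mean of at least 0.1 FPKM were fitted with limma 3.58.1 in R 4.3.3 (empirical Bayes with trend) on log2(FPKM + 0.1), with no covariate, and adjusted by Benjamini-Hochberg over all 20448 genes. A fold on this scale understates the change of low genes. The authors used DESeq2, which was not run here, and voom on the recovered reads was an alternative. Correlations were computed in Python 3.11.15 with numpy 2.4.6 and scipy 1.17.1. The read recovery, the fit and the correlation test were tested on simulated data.

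Named were all members, of each list the genes that passed (at most 4) and the 2 most abundant, and the 5 genes most like Cpa3. The 2 most abundant are left out for lists of other cell types, on which no result turns, except for neutrophils. Of the clock, glucocorticoid and sex-linked genes, Arntl, Fkbp5, Per1, Xist and Ddx3y are named and the rest counted. Tpsab1, Mrgprb2, Cma2, Mcpt9, Mcpt1, Mcpt2, Tph1, Gata1, Il1rl1, Prss34, Cd200r3, Adora3, Prcp and Agt lie outside this rule and were chosen after their values were seen, as were Ctsg and Myh6. One result on the general leukocyte list is not reported here. Lists of megakaryocyte, eosinophil, fat and blood genes held 0 genes that passed (limma), of 9, 6, 4 and 5 tested, 2, 1, 0 and 0 with an unadjusted p under 0.05 and 0 with voom, with medians of 0.03, 0.37, 1.06 and -0.49. Alternatives were a pseudocount of 1 or 0.01, a filter at a mean of 1 FPKM or none, median-of-ratios scaling, quantile normalization, no variance trend, a replicate block, array weights, voom on recovered reads, and each lung left out. No group held a copied library: chi-square per degree of freedom between lungs of a group was 4.78 to 37.3.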

Additional observations from a re-analysis of the deposited data

Results flagged for a closer look

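Fcer1a, the alpha chain of the IgE receptor, was examined with the other members in each group for a lung far from the rest. Sham replicate 1 had 0.0608 FPKM, while the other 4 sham lungs were at 0. The value is a single read, and with the others at 0 any read would stand out. The same lung stood apart across all genes. It was the 1 result so marked among 20 groups of 5 lungs, and by the limit used (Dixon's, 95%) chance marks about 1 in 20.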

How the results depend on the processing

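Cpa3 kept its direction and its call in all 20 alternatives, with log2 differences of 1.54 (pseudocount 1) to 2.31 and limma adjusted p-values of 0.000816 to 0.0164 over the 10 that kept every lung. Cma1 did so in the 9 that could test it (0.49 to 1.45, adjusted p 0.00833 to 0.0469). In the same 9, Mcpt4 ranged from 0.23 (pseudocount 1) to 1.22 (pseudocount 0.01) and Tpsb2 from 0.22 to 1.72, and neither passed in any. The number of members that passed was 1 at a mean of at least 1 FPKM, where Cma1 was not tested, and 1 to 2 with a lung left out. The number of partners of Cpa3 that passed was 0 in all 14 alternatives. Of the coefficients with Cpa3, Mcpt8 turned to 0.134 without the 2 farthest lungs and Tpsb2 to -0.103 by Spearman's rho. With a lung left out, Mcpt4 ranged from -0.0170 to 0.322, Mcpt8 from -0.50 to 0.10, Tpsb2 from -0.34 to 0.26, Kit from -0.51 to 0.17, Hdc from -0.0084 to 0.55, Cma1 from 0.0079 to 0.74, Fcer1a from 0.23 to 0.60, Ms4a2 from -0.72 to -0.35 and Gata2 from -0.79 to -0.34. Over the 10 alternatives that kept every lung, Gzmb was not called in 3 (limma adjusted p up to 0.0742), Fcer1g in 4 (up to 0.0891), Cysltr1 in 3 (up to 0.0662) and Areg in 1, the replicate block (0.0596). Log2 differences near 0 also changed sign. Cebpa was -0.0022 under median-of-ratios scaling, -0.0132 under quantile normalization and -0.000338 with array weights, and -0.0508 to 0.0458 with a lung left out. Srgn was -0.0205 with array weights and Enpep -0.0188 under quantile normalization, and with a lung left out Enpep ranged from -0.0241 to 0.0893 and Kitl from -0.117 to 0.0177. The cause was not tested.

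With the replicate number as a block, Cpa3 had 2.20 (limma adjusted p = 0.0164) and Cma1 1.21 (adjusted p = 0.0373), 2 members passed and 1045 of all genes passed against 1196. Of all genes, 775 (without IPF replicate 4) to 1620 (without IPF replicate 5) passed with a lung left out. Lungs of the same number had correlated deviations of -0.0204 to 0.0953, and 6 of 10 lungs correlated best with the lung of their own number. These values do not settle whether the numbers pair the lungs. The labels give no pairing, so the block was run as an alternative only. With it Hdc had an unadjusted limma p of 0.0146 against 0.135 without, and an adjusted p of 0.125 against 0.417. Pooled correlations without centring were not run, since the Cpa3 groups did not overlap. Read depth limited Cma1, Mcpt4, Mcpt8, Tpsb2, Ms4a2 and Fcer1a.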
